A study of Mus musculus with 12 samples.

Results

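The genes described here are 9 mouse genes of blood coagulation and of fibrinolysis, the breakdown of fibrin clots. They are F3, F7, F10, F5, F13a1, Thbd, Plau, Plaur and Serpinb2. They were taken from the deposited raw count table by the symbol of each Ensembl gene identifier. All 9 symbols were found among the 57010 genes of the table, and all 9 passed the filter on low counts that left 15943 genes for testing. The cells, large peritoneal macrophages sorted as F4/80 high and MHCII low, live permanently in the fluid of the mouse abdomen. RNA came from female mice, either WT or Tim4 KO (lacking Tim4, a receptor for phosphatidylserine on dying cells, encoded by Timd4). The groups WT naive and Tim4KO naive had no treatment. In the groups WT ID8 and Tim4KO ID8, 8-week-old mice had received ID8ZGO by intraperitoneal injection, the ID8 mouse ovarian tumour line expressing ZsGreen and OVA. From these mice only ZsGreen-positive macrophages were sorted, 24 hours later, so that the challenge and the uptake of tumour material were measured together. Each group had 3 libraries. The strain, the way in which Tim4 was deleted, the age of the naive mice and whether animals were pooled are not given in the sources used here.

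Coagulation starts when tissue factor (F3), a membrane receptor, binds the protease factor VII (F7). That complex activates factor X (F10), which with its cofactor, factor V (F5), turns prothrombin into thrombin, and factor XIII (A subunit, F13a1) then crosslinks the fibrin that thrombin makes. Thrombomodulin (Thbd) redirects thrombin towards activating protein C, an anticoagulant. Urokinase (Plau), held at the cell surface by its receptor (Plaur), turns plasminogen into plasmin, which dissolves fibrin, and Serpinb2 encodes an inhibitor of urokinase that is largely kept inside the cell. Large peritoneal macrophages are known to make factor V and to be caught in fibrin clots when the cavity is inflamed.

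Total counts per library ran from 7358559 to 23170244. Timd4 stood at 882 to 1489 CPM (counts scaled to a common library size) in the 6 WT libraries and at 1.38 to 7.71 CPM in the 6 Tim4KO libraries, which matches the genotype labels. The macrophage markers Adgre1, Gata6 and Icam2 were present in every library, Gata6 at 120 to 194 CPM. The full list of 15 large peritoneal macrophage markers summed to 63280 to 74561 CPM in naive and 29042 to 36262 CPM in ID8 libraries. The fall in this sum was mostly Lyz2, at 40527 to 47486 CPM in naive and 10729 to 14990 CPM in ID8 libraries. The other 14 genes summed to 21842.5 to 27074 CPM in naive and 17381 to 21549 CPM in ID8 libraries. Of the 15 genes, 3 rose and 5 fell after the challenge in each genotype. Marker sums ran from 72.1 to 259 CPM for neutrophils and from 79.2 to 148 CPM for mast cells, most of it Csf3r and Hdc. Csf3r stood at 169 to 250 CPM in naive and 60.1 to 82.9 CPM in ID8 libraries, while the other 10 neutrophil genes summed to 8.75 to 11.2 and 12 to 33.9 CPM. Of the whole neutrophil list, Csf3r included, 3 genes rose and 1 fell in WT, and 2 rose and 1 fell in Tim4KO. The 7 mast cell genes other than Hdc summed to 13.6 to 39.3 CPM in naive and 2.53 to 9.61 CPM in ID8 libraries, and of the whole list 5 fell in WT and 2 in Tim4KO. The part of these cells in the challenge changes was not tested. They stayed at or under 28.4 CPM in each library for B cells, for T and NK cells, for tumour epithelium with mesothelium, for fibroblasts with endothelium and for hepatocytes. Olfactory and vomeronasal receptor genes, used as a measure of background reads, summed to 323 to 828 CPM in the WT naive libraries and 6.25 to 253 CPM in the WT ID8 libraries. In Tim4KO the sums were 266 to 446 CPM for naive libraries and 41.8 to 360 CPM for ID8 libraries. The deepest library, WT ID8 replicate 3, had the lowest of these sums and stood apart: without it the Tim4KO against WT comparison in ID8 cells called 997 genes in place of 9. Results that rest on it are given with and without it below.

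The challenge comparison asks how the genes differed between ZsGreen-positive macrophages of injected mice and macrophages of naive mice. In WT, F3, F7, F10, Plaur and Serpinb2 rose, F13a1, Thbd and Plau fell, and F5 did not pass the test. These 8 called members of 9 stand beside a background of 31.8% of the 15943 tested genes, 19.5% higher and 12.3% lower. In Tim4KO, F7, F10 and Plaur rose and F13a1 fell, 4 of 9 beside a background of 16.6%, 11.5% higher and 5.06% lower. Called means an adjusted p under 0.05 by edgeR's quasi-likelihood test with Benjamini-Hochberg adjustment over all tested genes. All 9 fitted changes had the same sign in both genotypes, and 7 of the 9 were larger in size in WT. The libraries of a group are bulk RNA, in which fewer cells of a type and less RNA per cell cannot be told apart. Nothing in the labels says that replicates came from separate mice, so the p-values measure the spread between these libraries, which may be technical.

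**Figure D1:**
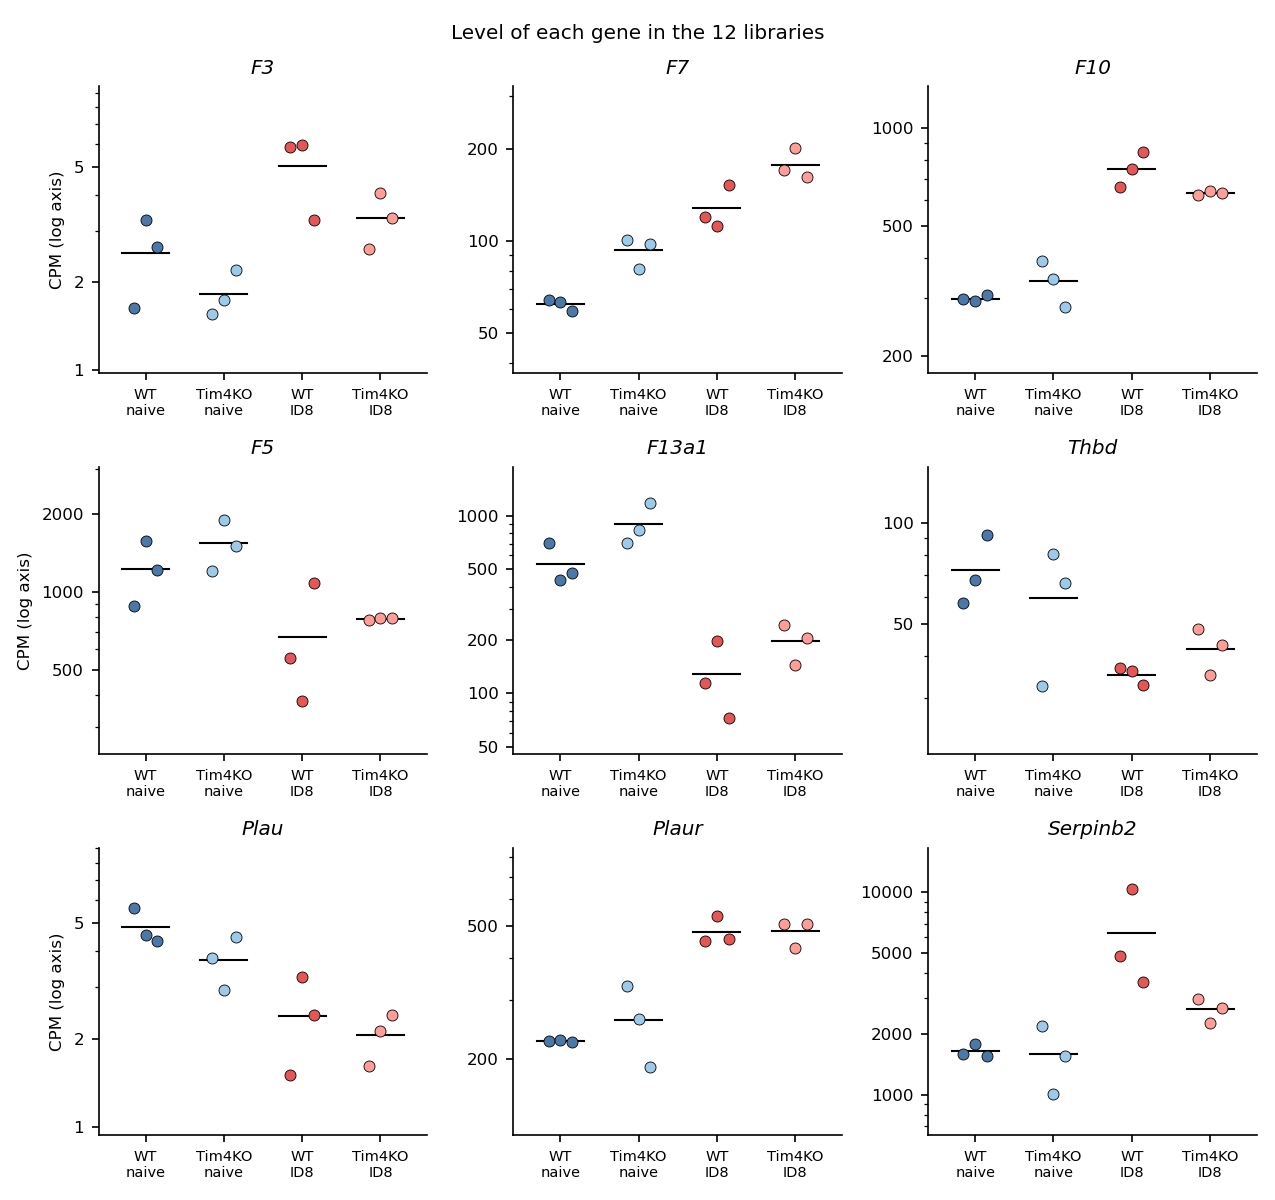
Level of each of the 9 genes in CPM (log axis) in the 12 libraries; each point is 1 library, in the order of its replicate number, and each bar is the mean of 3. Naive and ID8 libraries do not overlap in either genotype for F3, F7, F10, F13a1, Plau, Plaur and Serpinb2. For F5 they overlap in WT, and for Thbd in Tim4KO. No share of non-overlapping genes over all tested genes is given, so this describes the 9 genes only.

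**Figure D2:**
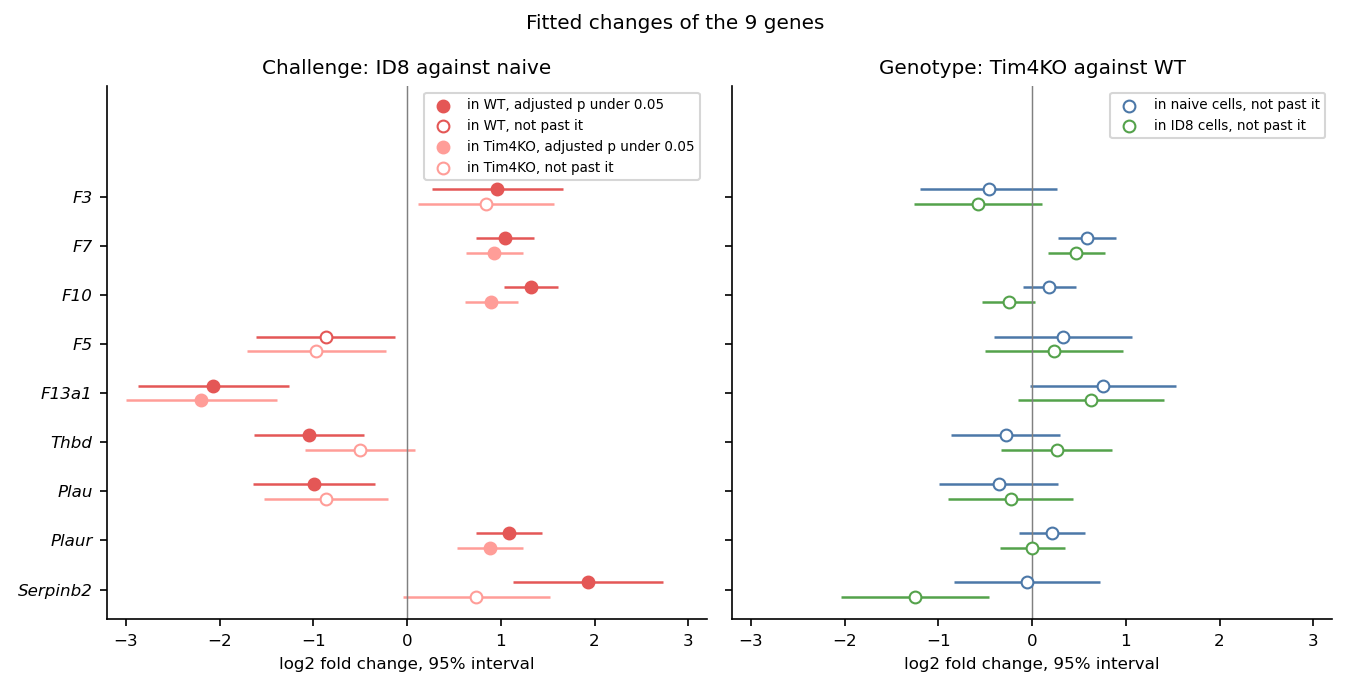
Fitted log2 fold changes of the 9 genes with 95% intervals, for the challenge (left) and for the genotype (right); filled points passed an adjusted p of 0.05. In WT 8 challenge changes are filled and in Tim4KO 4, and no genotype difference is filled.

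F7 and F10 rose in both genotypes. They lie side by side on mouse chromosome 8, on the same strand and 1498 bases apart. The 250 bases before the transcription start are shown for both, since the neighbours moved together, and for F3, the receptor of factor VII. The sequences are RefSeq promoter windows on GRCm38.p6, written 5′ to 3′ on the gene's strand. Capitals mark matches, on either strand, to 7 short motifs: AP-1 (TGANTCA), CRE (TGACGTCA), C/EBP (TTGCNNAA), PU.1 (GAGGAA), the GATA motif, which is AGATAA, the TATA box (TATAAA) and the GC box (GGGCGG). The windows are chr3:121723287-121723536, chr8:13025784-13026033 and chr8:13037058-13037307, all on the plus strand.
F3: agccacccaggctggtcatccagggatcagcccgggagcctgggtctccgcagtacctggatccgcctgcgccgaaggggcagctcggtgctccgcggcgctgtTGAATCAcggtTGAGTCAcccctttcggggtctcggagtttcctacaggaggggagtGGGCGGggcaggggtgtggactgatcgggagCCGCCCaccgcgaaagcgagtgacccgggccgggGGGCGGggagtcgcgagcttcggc
F7: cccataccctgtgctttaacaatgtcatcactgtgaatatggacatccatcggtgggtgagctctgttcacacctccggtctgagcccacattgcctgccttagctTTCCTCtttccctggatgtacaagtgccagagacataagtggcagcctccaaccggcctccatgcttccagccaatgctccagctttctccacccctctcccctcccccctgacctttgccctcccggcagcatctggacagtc
F10: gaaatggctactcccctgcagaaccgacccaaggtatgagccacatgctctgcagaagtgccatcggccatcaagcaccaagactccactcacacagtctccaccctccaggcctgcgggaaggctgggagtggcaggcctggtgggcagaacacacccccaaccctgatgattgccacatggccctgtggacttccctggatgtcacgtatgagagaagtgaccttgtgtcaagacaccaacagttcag
The F7 window held 1 PU.1 match, which 23.3% of all 32851 promoter windows of this length also held, and the F10 window held none of the 7 motifs. The F3 window held 2 AP-1 matches, starting 146 and 135 bases before the start, and 3 GC boxes; 6.75% of all windows held an AP-1 match and 32.7% a GC box. Such matches describe the letters only.

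F7, the protease that binds tissue factor, stood at 64.4, 63.1 and 59.3 CPM in WT naive and at 120, 112 and 153 CPM in WT ID8. In Tim4KO it stood at 101, 81.1 and 98.1 CPM in naive cells and at 172, 201 and 162 CPM in ID8 cells. In each genotype every ID8 library was above every naive library, and the ranges of the 4 groups did not overlap at all, from WT naive at the bottom through Tim4KO naive and WT ID8 to Tim4KO ID8 at the top. The challenge change was 1.05 on the log2 scale (SE 0.14, 2.06-fold, adjusted p = 0.000125 by edgeR) in WT and 0.93 (SE 0.14, 1.91-fold, adjusted p = 0.000593 by edgeR) in Tim4KO.

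F10, the protease that factor VII activates, was more abundant than F7 in every library. Its levels were 299, 293 and 306 CPM in WT naive and 659, 751 and 842 CPM in WT ID8. They were 391, 345 and 283 CPM in Tim4KO naive and 623, 643 and 631 CPM in Tim4KO ID8. Both naive groups overlapped each other and lay below every ID8 library. F10 rose 2.51-fold in WT (log2 1.33, SE 0.13, adjusted p = 1.09e-05 by edgeR) and 1.86-fold in Tim4KO (log2 0.90, SE 0.13, adjusted p = 0.000479 by edgeR). The ratio of F7 to F10 in CPM per kilobase of exons was 0.306 ± 0.018 in WT naive and 0.251 ± 0.027 in WT ID8. In Tim4KO this ratio was 0.411 ± 0.086 in naive cells and 0.414 ± 0.043 in ID8 cells (SD, n = 3).

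F3, which encodes tissue factor, was the scarcest of the genes per exonic length in naive cells, with 13 to 49 reads in a naive library and 34 to 72 in an ID8 library. Its levels were 1.62, 3.27 and 2.65 CPM in WT naive and 5.87, 5.93 and 3.29 CPM in WT ID8. In Tim4KO they were 1.56, 1.73 and 2.20 CPM in naive cells and 2.61, 4.06 and 3.34 CPM in ID8 cells. A single background gene averaged 0.00321 to 0.426 CPM per library, below F3 in all 12. These background genes were picked at a mean of at most 1 CPM and not matched for length. Their low average therefore does not show that F3 stands above background. The WT groups were apart by the narrowest of margins, since WT ID8 replicate 3 sat just above WT naive replicate 2. F3 passed the test in WT (log2 0.96, SE 0.33, 1.95-fold, adjusted p = 0.0373 by edgeR) and did not in Tim4KO (log2 0.85, SE 0.34, 95% interval 0.12 to 1.57, adjusted p = 0.106 by edgeR). The WT call was lost without WT naive replicate 1 (log2 0.75, adjusted p = 0.127), WT naive replicate 3 (1.02, 0.0785), WT ID8 replicate 1 (0.89, 0.0525) or WT ID8 replicate 2 (0.84, 0.119), and under limma voom, upper-quartile scaling and a fit of the 2 groups alone.

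F5 and F13a1, which encode the cofactor of factor X and the subunit that crosslinks fibrin, were both at high levels in naive cells. F13a1 fell after the challenge in both genotypes, and the change of F5 passed the test in neither. F13a1 was the member with the largest decrease. Its first listed RefSeq window, shown because no member fell more, held 1 PU.1 match and none of the other motifs. It is chr13:37050245-37050494 on the minus strand.
F13a1: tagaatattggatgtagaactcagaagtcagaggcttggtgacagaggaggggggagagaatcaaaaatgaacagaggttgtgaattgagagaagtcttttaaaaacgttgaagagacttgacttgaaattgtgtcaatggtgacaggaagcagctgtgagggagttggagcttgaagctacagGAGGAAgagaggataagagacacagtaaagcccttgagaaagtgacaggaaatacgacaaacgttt
F13a1 stood at 700, 439 and 475 CPM in WT naive and at 114, 198 and 72.9 CPM in WT ID8. In Tim4KO it stood at 702, 839 and 1181 CPM in naive cells and at 243, 145 and 206 CPM in ID8 cells. All 6 ID8 libraries were below all 6 naive libraries, and the ID8 groups overlapped each other. F13a1 fell 4.20-fold in WT (log2 -2.07, SE 0.36, adjusted p = 0.00189 by edgeR) and 4.59-fold in Tim4KO (log2 -2.20, SE 0.37, adjusted p = 0.00267 by edgeR).

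Markers of small peritoneal macrophages and dendritic cells fell in sum along with F13a1. The 11 genes of that list ran from 439 to 745 CPM in WT naive and from 74.8 to 139 CPM in WT ID8, and from 374 to 879 CPM in Tim4KO naive and from 117 to 254 CPM in Tim4KO ID8. The sum in naive cells was mostly Retnla, at 275 to 596 CPM in WT naive, 215 to 663 in Tim4KO naive, 24.4 to 47.0 in WT ID8 and 27.6 to 120 in Tim4KO ID8. The other 10 genes together ran from 149 to 164 CPM in WT naive and from 50.4 to 109 in WT ID8, while in Tim4KO naive (131 to 215) and Tim4KO ID8 (89.8 to 134) they overlapped. None of the 11 rose and 6 fell in WT, and 2 fell in Tim4KO, with a median log2 change of -0.83 and 0.05. Their part in the change of F13a1 was not tested. Platelets also carry factor V and factor XIII, and the summed platelet list was almost all Pf4, a chemokine that macrophages can also make, at 1547 to 2166 CPM in naive and 2389 to 3120 CPM in ID8 libraries. The other 11 platelet genes stayed at or under 5.17 CPM in each library, and Gp1bb was at 0 in all 12. In F13a1, 74 of 6739 exonic bases overlap Gm30489 on the opposite strand, and in F5, 262 of 7430 overlap Gm16548; whether the counting used strand is not given in the sources used here.

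F5 stood at 879, 1578 and 1220 CPM in WT naive and at 555, 378 and 1083 CPM in WT ID8. In Tim4KO it stood at 1210, 1901 and 1512 CPM in naive cells and at 778, 795 and 790 CPM in ID8 cells. The Tim4KO groups did not overlap, while WT ID8 replicate 3 lay inside the range of the WT naive libraries. The fitted change was -0.87 on the log2 scale in WT (SE 0.34, 95% interval -1.61 to -0.13, adjusted p = 0.07 by edgeR) and -0.97 in Tim4KO (SE 0.34, 95% interval -1.71 to -0.23, adjusted p = 0.076 by edgeR), so neither passed the test. Without WT ID8 replicate 3 the WT change was -1.38 with an adjusted p of 0.000207 by edgeR, which passed. The Tim4KO change, of -0.95, passed without WT ID8 replicate 2 (adjusted p = 0.0281) and without WT ID8 replicate 3 (adjusted p = 0.00242); both libraries are outside the groups compared and share only the fit. F5 was also called in 3 of 9 other settings in WT and in 5 of 9 in Tim4KO.

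Thbd, which encodes the anticoagulant receptor thrombomodulin, stood at 57.6, 67.7 and 92.0 CPM in WT naive and at 36.7, 36.2 and 32.7 CPM in WT ID8. In Tim4KO it stood at 32.6, 80.7 and 66.1 CPM in naive cells and at 48.0, 35.2 and 43.1 CPM in ID8 cells. The WT groups did not overlap, whereas Tim4KO naive replicate 1 was the lowest of all 12 libraries and lay below the whole Tim4KO ID8 group. Thbd fell 2.06-fold in WT (log2 -1.05, SE 0.27, adjusted p = 0.0124 by edgeR). In Tim4KO the change was -0.50 (SE 0.27, 95% interval -1.09 to 0.09, adjusted p = 0.241 by edgeR), and without Tim4KO naive replicate 1 it was -0.78 (adjusted p = 0.0116). The WT call was lost without WT naive replicate 3 (log2 -0.81, adjusted p = 0.0601), without WT ID8 replicate 3 (-0.97, 0.0839) and with background reads as a covariate (-1.12, 0.0692).

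Of the plasminogen activation genes, the urokinase receptor rose after the challenge in both genotypes. In WT the inhibitor Serpinb2 rose and urokinase itself, already scarce, fell, and neither change passed the test in Tim4KO. The promoter windows of Plaur and Serpinb2 are shown because they held an AP-1 match. With F3, these were 3 of the 7 members with a RefSeq window. An AP-1 match was held by 6.75% of all windows, and a part of the motif in the changes was not tested. The windows shown are chr7:24462233-24462482 and chr1:107511173-107511422, both on the plus strand.
Plaur: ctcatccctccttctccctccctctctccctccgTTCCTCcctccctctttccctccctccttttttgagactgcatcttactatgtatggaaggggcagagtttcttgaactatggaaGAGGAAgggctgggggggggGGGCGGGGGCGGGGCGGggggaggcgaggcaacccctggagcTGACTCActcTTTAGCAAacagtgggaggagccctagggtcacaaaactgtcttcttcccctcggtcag
Serpinb2: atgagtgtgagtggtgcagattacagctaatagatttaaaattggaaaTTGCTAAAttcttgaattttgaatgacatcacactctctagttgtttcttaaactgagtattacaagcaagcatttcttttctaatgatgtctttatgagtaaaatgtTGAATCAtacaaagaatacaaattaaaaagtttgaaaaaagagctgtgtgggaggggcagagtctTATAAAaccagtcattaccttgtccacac
In Plaur the AP-1 match began 69 bases before the start and a C/EBP match on the other strand began 59 bases before it, and 3 GC boxes followed each other, of which the second and the third shared a base. In Serpinb2 the AP-1 match began 94 and a TATA box 29 bases before the start. C/EBP matches were held by 9.56% and TATA boxes by 12.4% of all windows. The GC content was 32.4% in the Serpinb2 window and 70.0% in that of F3, beside a median of 52.4% over all windows. Serpinb2 and F13a1 each had a further window, which is not shown; that of Serpinb2 also held AP-1, C/EBP and TATA box matches and a GATA match, and that of F13a1 held none. A GC box was the only match in the F5 window.

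Plaur, the receptor that holds urokinase at the cell surface, stood at 226, 227 and 224 CPM in WT naive and at 449, 533 and 457 CPM in WT ID8. In Tim4KO it stood at 330, 264 and 190 CPM in naive cells and at 507, 430 and 505 CPM in ID8 cells. Every ID8 library was above every naive library, and the ID8 groups overlapped. Plaur rose 2.12-fold in WT (log2 1.09, SE 0.17, adjusted p = 0.000282 by edgeR) and 1.84-fold in Tim4KO (log2 0.88, SE 0.17, adjusted p = 0.00244 by edgeR).

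Plau, the activator itself, was read 13 to 79 times per library. It stood at 5.63, 4.54 and 4.33 CPM in WT naive and at 1.5, 3.27 and 2.42 CPM in WT ID8. In Tim4KO it stood at 3.77, 2.93 and 4.45 CPM in naive cells and at 1.61, 2.12 and 2.42 CPM in ID8 cells. Naive and ID8 libraries did not overlap within either genotype. Plau fell 1.99-fold in WT (log2 -0.99, SE 0.31, adjusted p = 0.0236 by edgeR) and its change in Tim4KO did not pass the test (log2 -0.86, SE 0.31, 95% interval -1.53 to -0.20, adjusted p = 0.0716 by edgeR). The WT call was lost without WT naive replicate 1, 2 or 3 (adjusted p = 0.085, 0.0559 and 0.051) or without WT ID8 replicate 1 (log2 -0.70, adjusted p = 0.0729), and with no filter on low counts (-0.87, 0.109). The Tim4KO call was gained without WT ID8 replicate 1 (log2 -0.86, adjusted p = 0.0488) and in 3 of 8 other settings, which were the DESeq2 Wald test (0.0451), the 2 groups alone (0.0409) and upper-quartile scaling (0.044). Reads in background genes also fell in sum after the challenge, and with them as a covariate the WT change was -0.87 (adjusted p = 0.17). The ratio of Plaur to Plau in CPM per kilobase of exons was 42.8 ± 5.69 in WT naive and 197 ± 66.0 in WT ID8. In Tim4KO this ratio was 66.4 ± 24.1 in naive cells and 219 ± 56.8 in ID8 cells (SD, n = 3). Naive and ID8 libraries did not overlap in it.

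Serpinb2 was the most abundant of the genes in every group once exonic length was taken into account. Its levels were 1600, 1790 and 1557 CPM in WT naive and 4884, 10354 and 3632 CPM in WT ID8. In Tim4KO they were 2184, 1016 and 1564 CPM in naive cells and 2975, 2277 and 2694 CPM in ID8 cells. The WT ID8 libraries differed most among themselves and all lay above all other libraries, and the Tim4KO ID8 libraries lay just above the naive range. Serpinb2 rose 3.81-fold in WT (log2 1.93, SE 0.37, adjusted p = 0.0027 by edgeR). In Tim4KO the change was 0.74 (SE 0.36, 95% interval -0.04 to 1.52, adjusted p = 0.192 by edgeR), and it passed without WT ID8 replicate 2, the highest library and not in either group compared (0.75, adjusted p = 0.0356). In WT, leaving out that library gave 1.40. In Serpinb2, 291 of 2349 exonic bases overlap its neighbour Serpinb10 on the same strand, so the counts of both in that stretch are uncertain.

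The genotype comparisons ask whether the genes differed between Tim4KO and WT macrophages. In naive cells 0 of 9 members were called, beside a background of 0.0439% of tested genes, and 1 had an unadjusted p under 0.05, as did 6.27% of tested genes. In ID8 cells 0 of 9 were called, beside 0.0565%, and 2 had an unadjusted p under 0.05, as did 12.1% of tested genes. DESeq2 and limma voom also called 0 of 9 in both. Of all 15943 genes DESeq2 called 52 in naive and 266 in ID8 cells, and limma voom called 3 and 10. The challenge and genotype comparisons share libraries, so their values are set side by side only.

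F7 was the naive member with an unadjusted p under 0.05. Its Tim4KO and WT libraries did not overlap in naive cells (log2 0.59, SE 0.14, 1.5-fold, adjusted p = 0.353 by edgeR) or in ID8 cells (log2 0.47, SE 0.14, 1.39-fold, adjusted p = 0.251 by edgeR). Without WT ID8 replicate 3 the difference in ID8 cells was 0.62 with an adjusted p of 0.0149 by edgeR, in a fit that called 997 of 17374 genes. F7 was called in only 1 of the 12 fits with 1 library left out, over which this difference ran from 0.37 to 0.62. Serpinb2 in ID8 cells was 2.37-fold lower in Tim4KO than in WT by the fit (log2 -1.25, SE 0.36, adjusted p = 0.251 by edgeR), with all 3 Tim4KO libraries below all 3 WT libraries. Without WT ID8 replicate 3 it was -1.53 with an adjusted p of 0.0464 by edgeR, called in only 1 of the 12 fits with 1 library left out. Without WT ID8 replicate 2, the highest library, it shrank to -0.69 and was not called. In naive cells the Serpinb2 difference was -0.05 with a 95% interval from -0.83 to 0.72. F13a1 was 1.69-fold higher by the fit in Tim4KO than in WT naive cells without passing the test (log2 0.75, 95% interval -0.02 to 1.53, adjusted p = 0.787 by edgeR), and its ranges just failed to overlap. For Plaur in ID8 cells the difference was 0.0033 with a 95% interval from -0.35 to 0.35.

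The interaction asks whether the challenge response itself differed between genotypes. It called 0 of 9 members and 0 of the 15943 tested genes, a background of 0%, while 2 members and 1186 genes had an unadjusted p under 0.05. DESeq2 called 0 of 9 members and 11 genes, and limma voom called 0 and 0. Without WT ID8 replicate 3, edgeR called 0 of 9 members and 368 of 17374 genes, and the interaction of Serpinb2 was -1.48 (adjusted p = 0.196). Without WT ID8 replicate 2 the interaction of Serpinb2 shrank to -0.65 and was not called. Serpinb2 had the interaction of largest size among the members, with a Tim4KO response lower than the WT response by 1.19 on the log2 scale (95% interval -2.30 to -0.09, adjusted p = 0.668 by edgeR). For F10 the interaction was -0.43 (95% interval -0.83 to -0.03, adjusted p = 0.668 by edgeR). For the other 7 members the estimates lay between -0.20 and 0.55 and every 95% interval held 0. So the 4 members called in WT and not in Tim4KO are not shown to respond differently.

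Per kilobase of exons, the 9 genes ran from among the most abundant to the scarcely read. Serpinb2 ranked 59th of 15671 genes in WT naive, 54th in Tim4KO naive, 15th in WT ID8 and 29th in Tim4KO ID8, at group means of 702, 676, 2678 and 1127 CPM per kilobase. F10 moved from rank 431 to 201 in WT and from 356 to 228 in Tim4KO, while F13a1 moved from 572 to 2620 and from 329 to 1663. F5 stood at 165 CPM per kilobase in WT naive, above F10 at 110, and at 90.4 in WT ID8, below F10 at 275. At the other end, F3 and Plau had group means between 0.724 and 2.04 CPM per kilobase and ranks from 8766 to 11218. The ratio of F10 to F13a1 in CPM per kilobase was 1.43 ± 0.33 in WT naive and 17.4 ± 9.95 in WT ID8. In Tim4KO this ratio was 0.993 ± 0.392 in naive cells and 8.29 ± 2.40 in ID8 cells (SD, n = 3).

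**Figure D3:**
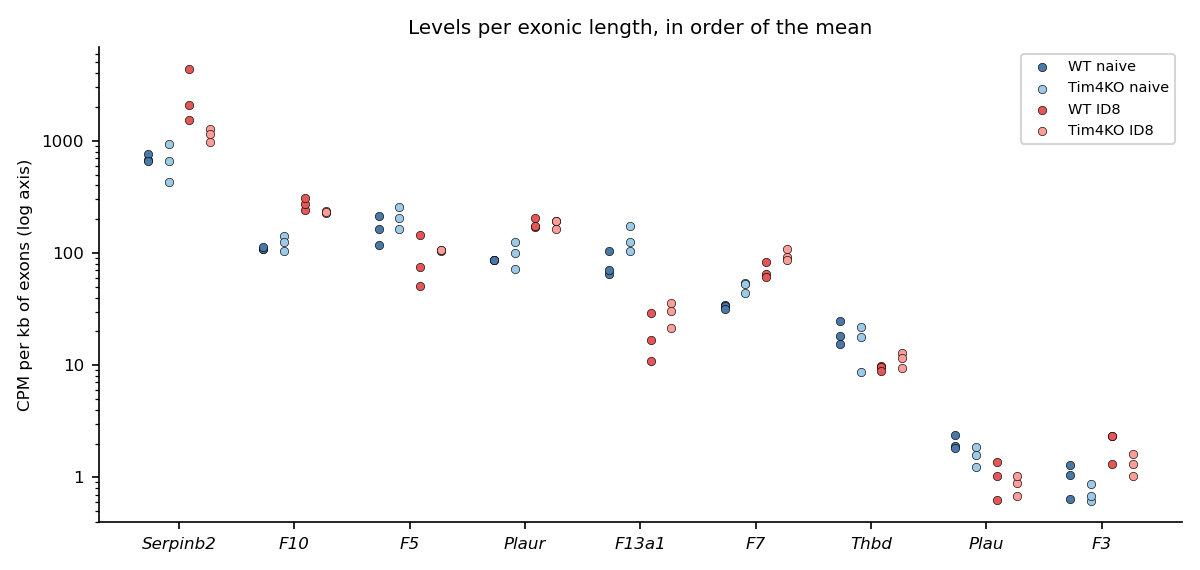
Levels of the 9 genes in CPM per kilobase of exons (log axis), 1 point per library, coloured by group and ordered by the mean over groups. Serpinb2 lies above the other genes in each group, and Plau and F3 lie lowest.

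The genes whose levels were most like those of each member over the 12 libraries were picked by Pearson correlation of log2 CPM among 9614 genes, for the 7 members with a mean count of at least 50. The points share the split into naive and ID8 libraries, so r is a description. F7 was most like Ap1g2, Flna and Brat1 (r = 0.975, 0.969 and 0.966), and F10 like Stfa3, Aifm1 and Actg1 (r = 0.992, 0.989 and 0.988). Plaur was most like Tex261, Metrnl and Naaa (r = 0.977, 0.971 and 0.970), and Serpinb2 like Rbms1, Rab1a and Ppip5k2 (r = 0.974, 0.968 and 0.967). F5 was most like Abca6, Hp1bp3 and Oscp1 (r = 0.974, 0.955 and 0.950), F13a1 like Ldlrad3, Zfp780b and Arl10 (r = 0.975, 0.962 and 0.961), and Thbd like Pgm2l1, Sirt1 and Zfp874a (r = 0.949, 0.934 and 0.931). Among the members, F10 and Plaur had r = 0.960 and F10 and F13a1 had r = -0.905.

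Of 34 other genes of the coagulation pathway, 16 could be tested. In WT 5 rose and 4 fell after the challenge, and in Tim4KO 4 rose and 1 fell, which is 56.2% and 31.2% of the 16 beside 31.8% and 16.6% of all tested genes. The median change of the 16 was -0.37 in WT and -0.09 in Tim4KO on the log2 scale, beside -0.04 and -0.05 over all tested genes. A fit of the 2 Tim4KO groups alone called 8 genes in place of 5, and 3827 of all 14124 genes in place of 2642 of 15943. Tgm2, a transglutaminase related to F13a1, went from 11.6 ± 5.49 to 176 ± 21.5 CPM in WT (14.8-fold, adjusted p = 3.18e-05 by edgeR) and from 11.2 ± 4.93 to 75.1 ± 5.36 CPM in Tim4KO (6.56-fold, adjusted p = 0.000528). Tfpi, the inhibitor of the tissue factor pathway, rose 1.67-fold in WT and 1.83-fold in Tim4KO, and Lman1, a cargo receptor that carries factors V and VIII out of the endoplasmic reticulum, rose 1.73-fold and 1.75-fold. Vkorc1, an enzyme of the vitamin K cycle that factors VII and X depend on, fell 2.68-fold in WT, where its relative Vkorc1l1 rose 1.73-fold. Gas6, a vitamin K dependent ligand, fell 3.76-fold in WT and 2.15-fold in Tim4KO. Pros1, which encodes the protein C cofactor protein S, fell 1.28-fold in WT (adjusted p = 0.048). The 18 genes that could not be tested include F2, F9, F11, F12, Fga, Fgb and Fgg, made chiefly by the liver, and none of the 18 had over 15 reads in a library.

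Of 28 other genes of the fibrinolysis and plasmin pathway, 20 could be tested. In WT 10 rose and 2 fell, and in Tim4KO 9 rose and 2 fell, which is 60% and 55% of the 20 beside 31.8% and 16.6% of all tested genes. The median log2 change of the 20 was 0.42 and 0.15, beside -0.04 and -0.05 over all tested genes. Without Tim4KO naive replicate 3, 7 genes in place of 11 were called in Tim4KO, and 1484 of all 16826 genes in place of 2642 of 15943. Anxa2 and S100a10, which together form a plasminogen receptor, both rose in both genotypes. Anxa2 went from 266 ± 58.3 to 1641 ± 449 CPM in WT (6.16-fold, adjusted p = 1e-06 by edgeR) and from 236 ± 23.7 to 1140 ± 75.7 CPM in Tim4KO (4.84-fold, adjusted p = 5.83e-06), and S100a10 rose 2.34-fold and 2.68-fold. Eno1, a glycolytic enzyme that also binds plasminogen at the cell surface, rose 2.36-fold and 2.29-fold. Igf2r, which can bind both plasminogen and the urokinase receptor, rose 4.67-fold and 3.57-fold, and Itga5, an integrin subunit, rose 2.16-fold in WT. Itgb3, an integrin subunit that pairs with Itgav, fell 3.63-fold and 2.24-fold, and Sorl1, a receptor that takes up urokinase, fell 2.33-fold in Tim4KO. Plg, which encodes plasminogen, was among the 8 genes that could not be tested, none of which had over 20 reads in a library. Neither list had a called gene in the genotype comparisons or in the interaction. Both lists were chosen with results of these data known, so their counts are a description.

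**Figure D4:**
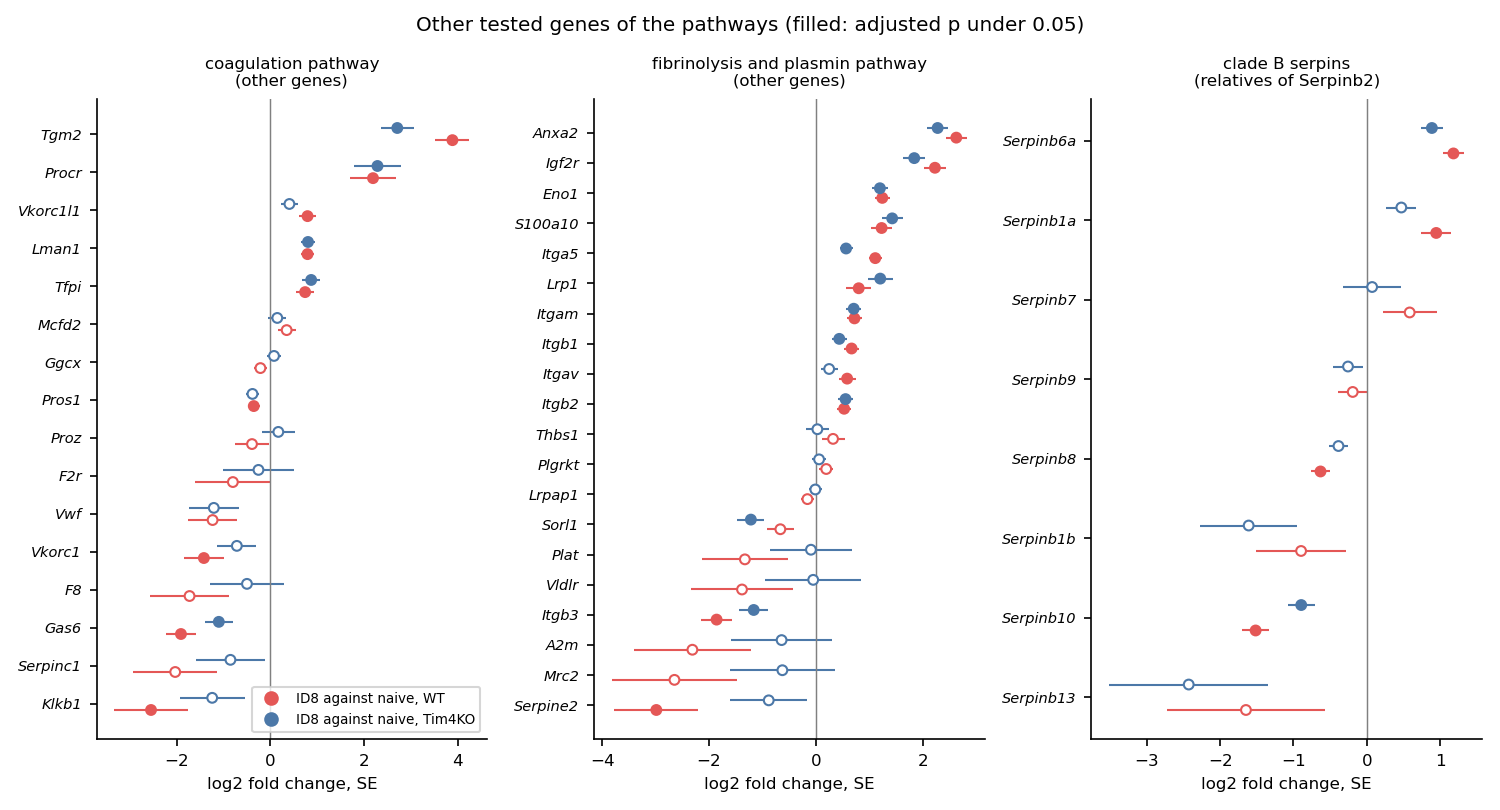
Challenge changes of the tested genes of the 3 other lists as log2 fold changes with standard errors, red for WT and blue for Tim4KO; filled points passed an adjusted p of 0.05. In WT Tgm2 and Anxa2 lie farthest to the right, and most genes that passed in the fibrinolysis and plasmin list lie right of 0.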

How the data were processed

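RNA was sequenced from sorted large peritoneal macrophages in 12 libraries, 3 in each of 4 groups. Per the labels' protocols, the RNeasy micro kit was used for extraction and the SMART-Seq mRNA LP kit for libraries, with cDNA amplified by PCR. Reads passed FastQC and were aligned with STAR 2.5, per the submitters' processing notes, which name the builds mm10 and GRCm39 with no role for either. The counting program, the annotation, and how strand and multi-mapping reads were treated are not given in the sources used here. The authors deposited 1 table of raw read counts per Ensembl identifier, whose 12 columns were matched to libraries by name, with 0 unmatched.

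Gene names, exonic lengths and overlaps came from GENCODE vM21, in which 52029 of 57010 identifiers had a name. The test was that of edgeR 4.0.16 (R 4.3.3): TMM scaling, filterByExpr by group, 1 robust quasi-likelihood fit of group means to all 12 libraries (8 residual degrees of freedom before moderation), two-sided tests and Benjamini-Hochberg adjustment over 15943 genes. CPM are counts per 1000000 of the TMM-scaled total of the tested genes, and means are given with the SD over 3 libraries. A floor of 3 counts was 0.137 to 0.399 CPM depending on depth. This floor covers counting error only, and without molecular identifiers copies made by PCR cannot be told apart. The fit was tested on simulated data. Alternatives were DESeq2 1.42.0 size factors and Wald test, upper-quartile scaling, limma 3.58.1 voom, no filter, a mean count of at least 50, the 2 groups alone, a replicate block, a covariate of background reads (1946 receptor genes at a mean of at most 1 CPM) and each library left out.

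The members and the gene lists were chosen with earlier results of these data known, and 1 gene of the fibrinolysis list is not reported here and not counted in it. All members are named. Of each pathway list, up to 4 called genes per direction with the smallest p and a mean count of at least 50 were eligible to be named in a challenge comparison, and up to 2 in a genotype comparison. For each member with a mean count of at least 50, the 3 genes of highest correlation (log2 CPM, prior count 2) are named. Other names were chosen after their values were seen. Promoter sequences are the 250 bases before the start in RefSeq's table for GRCm38.p6, which held 7 of the 9 members, and the first listed window of a gene is shown.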

Additional observations from a re-analysis of the deposited data

How the results depend on the processing

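The number of members called for the challenge was 7 or 8 in WT and 4 to 6 in Tim4KO over the 9 other settings. Those settings called 3102 to 5863 of all tested genes in WT and 2329 to 3827 in Tim4KO. With each library left out in turn, members called ran from 5 to 8 in WT (5 without WT naive replicate 3). In Tim4KO they ran from 4 to 6 (6 without WT ID8 replicate 2). For the genotype in ID8 cells they ran from 0 to 2 (2 without WT ID8 replicate 3). The fits named in brackets called 3362 of 17004, 2807 of 17515 and 997 of 17374 genes in these comparisons. The main fit called 5067, 2642 and 9 of 15943. F7, F10, F13a1 and Plaur were called in both challenge comparisons in all alternatives run, and Serpinb2 in all in WT. Among the alternative values of single log2 changes 852 kept sign and call, 16 lost a call, 20 gained one and 38 had the other sign, none of them called. For Plaur in ID8 cells by genotype these were -0.0114 with DESeq2 size factors, -0.0114 with the DESeq2 Wald test and -0.045 without a filter. For the interaction they were 0.00075 for F3 with limma voom, 0.0099 for F7, 0.0046 for F5 and 0.015 for F13a1 with upper-quartile scaling, and for F5 also 0.023 with limma voom and 0.39 with the background covariate. With 1 library left out, the interaction ran from -0.37 to 0.10 for F3, from -0.22 to 0.027 for F7, from -0.40 to 0.43 for F5, from -0.42 to 0.32 for F13a1 and from -0.16 to 0.37 for Plau. The genotype difference in ID8 cells ran from -0.064 to 0.77 for F5, from -0.50 to 0.022 for Plau and from -0.087 to 0.079 for Plaur, and in naive cells from -0.55 to 0.018 for Thbd and from -0.35 to 0.19 for Serpinb2. The causes were not tested. Upper-quartile scaling moved the median of all genes to -0.28 for the challenge in WT and to -0.17 in Tim4KO, and all 9 members kept the direction of both challenge changes under it.

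Same-numbered libraries did not deviate together: 5 of 18 pairs correlated above 0.1 (-0.50 to 0.42), and 2 of 12 libraries correlated best with their own number. With the replicate block 8 members were called for the challenge in WT and 4 in Tim4KO, and 0 by genotype or interaction. Of all 15943 genes that fit called 4619 and 2562 for the challenge. By genotype it called 3 in naive and 14 in ID8 cells, and 0 for the interaction. Depth limits F3 and Plau most, with 13 to 79 reads per library; a mean count of at least 50 leaves them out, so that setting gives no value for them.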

Other observations

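The relatives of Serpinb2 among the clade B serpins, inhibitors that mostly act inside cells, moved in both directions after the challenge. Of 15 genes 8 could be tested, and 2 rose and 2 fell in WT, while 1 rose and 1 fell in Tim4KO, where 4 were called without Tim4KO naive replicate 1. The main fit thus called 50% and 25% of the 8 genes, beside 31.8% and 16.6% of all tested genes. Without Tim4KO naive replicate 1, 2845 of all 17390 genes were called in Tim4KO in place of 2642 of 15943. Serpinb6a, an inhibitor of serine proteases in the cytosol, went from 115 ± 10.7 to 262 ± 20.2 CPM in WT (2.27-fold, adjusted p = 6e-05 by edgeR) and from 115 ± 16.4 to 213 ± 35.2 CPM in Tim4KO (1.85-fold, adjusted p = 0.00104). Serpinb1a, an inhibitor of neutrophil elastase, rose 1.93-fold in WT, and Serpinb8 fell 1.55-fold in WT. Serpinb10, the neighbour whose exons overlap those of Serpinb2, went from 241 ± 14.0 to 84.3 ± 15.3 CPM in WT (2.86-fold lower, adjusted p = 5.38e-05 by edgeR) and from 248 ± 27.6 to 134 ± 35.4 CPM in Tim4KO (1.86-fold lower, adjusted p = 0.00425), opposite in sign to Serpinb2. The median change of the 8 genes was -0.41 in WT and -0.32 in Tim4KO. DESeq2, edgeR and limma voom called 0 of the 8 in the genotype comparisons, and edgeR called 0 in the interaction.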
